A study of Homo sapiens with 10 samples.

Results

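Chemokine ligands are small secreted proteins that bind heparan sulfate and G protein-coupled receptors and direct the migration of leukocytes. They are classed as CC, CXC, XC or CX3C by the spacing of their first cysteines, and in myeloid cells many of them are known targets of NF-κB and interferon signaling. Ligand genes were taken as the protein-coding rows whose symbol starts with CCL, CXCL, XCL or CX3CL and a digit, or is PF4 or PPBP. The rule gave 46 genes of 60603 rows, of which 27 were CC, 16 CXC and 3 XC or CX3C ligands.

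RNA was measured by mRNA-seq in NB4, an acute promyelocytic leukemia line, in 2 experiments. For the GSE1 knockdown, cells received lentivirus from pLKO.1 puro, either empty (EV) or with the hairpin shA1 or shB2 against GSE1, and were harvested at 48 h. For LSD1 inhibition, NB4 cells with no vector named in the labels were given DMSO or 2 µM MC2580, spelled MC280 in the sample titles, for 24 h. Each of the 5 groups had 2 replicates of this single cell line, and the labels do not say whether replicates were separate cultures. The study asked which transcripts change when GSE1 is lost or LSD1 is inhibited.

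The level of a gene is given here as the base mean, the average over all libraries of a table of the counts after normalization by the authors. One base mean was taken to cover all 6 libraries of the knockdown table, and another all 4 libraries of the inhibitor table. The tables hold no other value that is not one of the authors' own fold changes, standard errors, test statistics or p-values, and those were not used. Hence no ligand could be compared here between EV, shA1 and shB2 or between DMSO and MC2580, no SD or test is given, and an order of levels was not tested. A gene was called detected at a base mean of at least 10. Because this mean is pooled, a gene can reach it through a single group or library of the table.

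NB4 cells had most of the promyelocyte transcripts that were looked for. MPO, the myeloperoxidase of azurophil granules, had a base mean of 506765 in the knockdown table and 824818 in the inhibitor table, and 6 of the 7 promyelocyte markers were detected in each table. ELANE, neutrophil elastase, was the exception, at 1.10 and 3.87, and the lowest detected marker was KIT, at 66.3 and 17.6. Of the markers of other lineages, 4 of 5 T cell, 3 of 4 B cell, 3 of 4 platelet, 1 of 4 endothelial and 1 of 4 fibroblast genes were detected in the knockdown table. The highest of each list there were CD3D at 866, CD79B at 1071, ITGA2B at 660, PECAM1 at 2048 and COL1A1 at 14.4. The lowest were CD3E at 1.55, MS4A1 at 0.217, GP9 and KDR at 0 and COL1A2 at 0.0734. All libraries came from the NB4 line, and the origin of these marker transcripts within it was not tested. In the inhibitor table, 2 of 5 T cell markers and the same numbers of B cell, platelet, endothelial and fibroblast markers were detected. Of all protein-coding genes, 63.1% and 63% were detected in the knockdown and inhibitor tables, so these counts alone do not set lineages apart. The summed marker base means of the knockdown and inhibitor tables were 1258 and 1277 for T cells, 1221 and 924 for B cells, 711 and 604 for platelets, 2057 and 693 for endothelium and 14.7 and 14.7 for fibroblasts. GSE1 itself had a base mean of 2963 in the knockdown table, which pools EV with both hairpins and so cannot check the knockdown, and of 4441 in the inhibitor table. KDM1A, which encodes LSD1, stood at 7648 and 6285.

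Most chemokine ligands were silent or close to it. Of the 46 ligands, 12 (26.1%) were detected in the knockdown table, against 63.1% of all protein-coding genes, and 9 (19.6%) in the inhibitor table, against 63%. A base mean of exactly 0, taken to mean that no library of the table had a count, was listed for 16 ligands in the knockdown table (34.8%, against 13.2% of protein-coding genes) and for 17 in the inhibitor table (37%, against 14.4%). The remaining 18 and 20 ligands lay above 0 and under the minimum. With no length correction, the median base mean of the ligands was 0.472 in the knockdown table and 0.43 in the inhibitor table, beside 162 and 148 over all protein-coding genes. All ligands together held 0.00583% and 0.00513% of the summed base means. In a bulk sample, fewer cells making a transcript and less transcript per cell cannot be told apart.

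**Figure D1:**
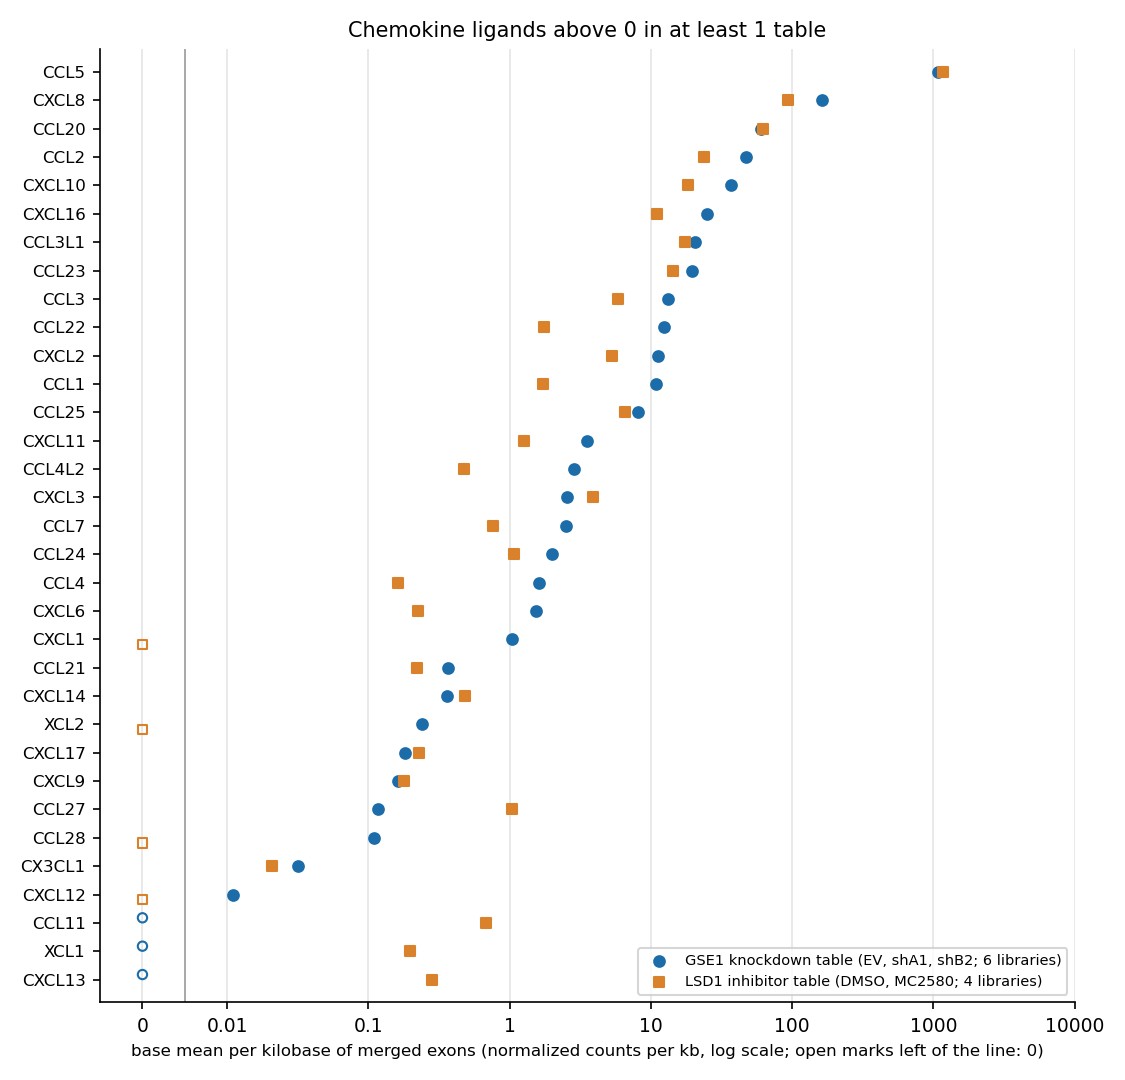
Base mean per kilobase of merged exons (log scale) for the 33 chemokine ligands above 0 in at least 1 table, with circles for the knockdown table and squares for the inhibitor table, and open marks for a level of 0. CCL5 lies far to the right of the other ligands in both tables, at 1081 and 1162 per kb. No error bars are drawn because each mark is 1 mean over all libraries.

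CCL5 (RANTES), which attracts T cells, monocytes and eosinophils through receptors that include CCR1 and CCR3, had the highest level of all ligands. The gene (ENSG00000271503.6) lies on the minus strand of GRCh38, chr17:35871491-35880793. Its base mean was 1475 in the knockdown table and 1585 in the inhibitor table. Divided by the length of its merged exons, 1364 bases, this was 1081 per kb and 1162 per kb, above 91.8% and 92.2% of protein-coding genes. CCL5 alone made up 70.8% of the summed level per kb of the 46 ligands in the knockdown table and 81% in the inhibitor table.

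CXCL8 (interleukin 8), the neutrophil attractant that binds CXCR1 and CXCR2, came second per kb in both tables. The gene (ENSG00000169429.11, plus strand, chr4:73740519-73743716) had a base mean of 418 in the knockdown table and 241 in the inhibitor table. Per kb this was 162 and 93.3, above 65.5% and 60.1% of protein-coding genes. CCL5 and CXCL8 together held 81.4% and 87.5% of the summed ligand level per kb.

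**Figure D2:**
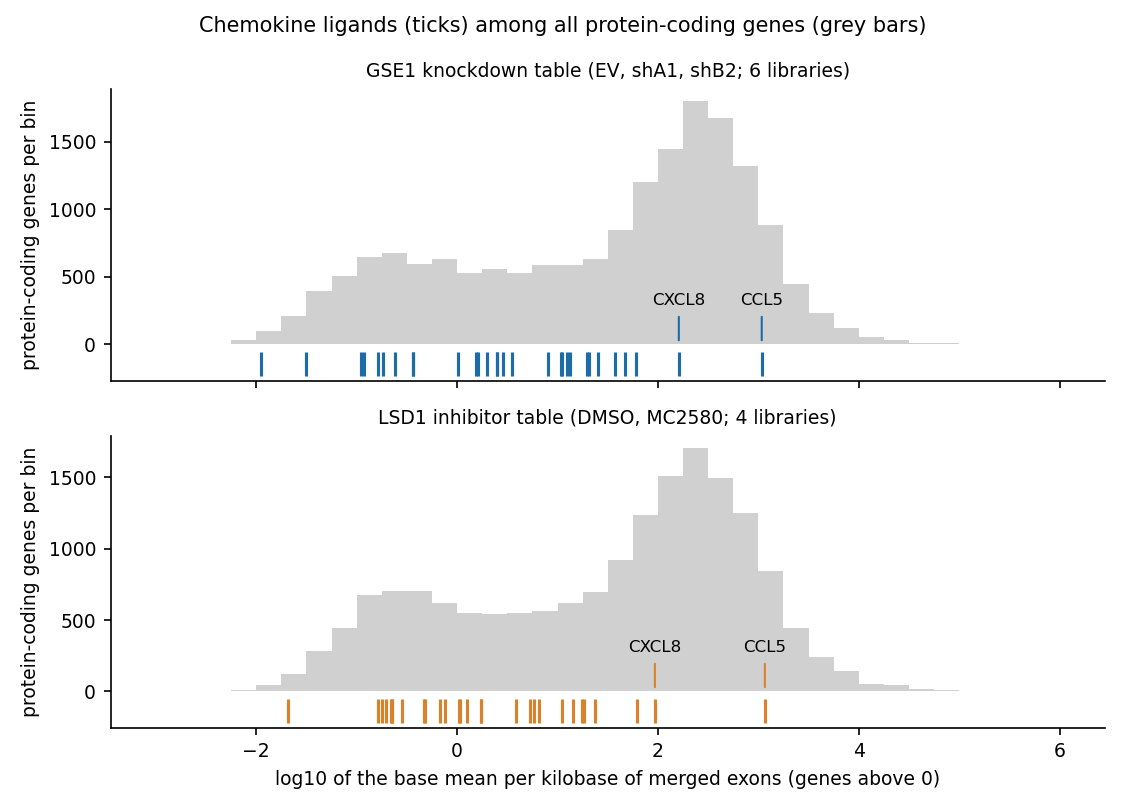
Number of protein-coding genes (bars) by log10 of the base mean per kilobase, for genes above 0, with the chemokine ligands above 0 as ticks under the bars. CCL5 lies in the right shoulder of both distributions, above 91.8% and 92.2% of the protein-coding genes, while most ticks lie left of the main peak.

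CCL20 and CCL2 came next per kb in both tables, and CXCL16, next by base mean, stood behind CXCL10 per kb. CCL20, which attracts CCR6-bearing dendritic cells and lymphocytes (chr2:227805739-227817564, plus strand), had a base mean of 95.7 in the knockdown table and 99.2 in the inhibitor table, or 60.03 and 62.2 per kb. CCL2 (MCP-1), the monocyte attractant that signals through CCR2 (chr17:34255274-34257208, plus strand), was at 91.2 and 45.8. CXCL16, a ligand of CXCR6 made both as a membrane-bound and a shed protein (chr17:4733533-4739928, minus strand), was at 69.9 and 30.7. CCL20, CCL2 and CXCL16 thus lay near the middle of the protein-coding genes, above 54.3%, 52.2% and 48.0% of them per kb in the knockdown table.

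Among the interferon-inducible ligands of CXCR3, CXCL10 was detected and its neighbours were not. CXCL10 (chr4:76021118-76023497, minus strand) had a base mean of 43.4 in the knockdown table and 21.6 in the inhibitor table. CXCL11 was at 6.31 and 2.24, and CXCL9 at 0.447 and 0.492. These 3 genes lie side by side within 40.1 kb of chromosome 4.

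CCL22, a macrophage and dendritic cell product that binds CCR4 (chr16:57358783-57366189, plus strand), had a base mean of 36.0 in the knockdown table and 5.06 in the inhibitor table. It was one of 3 ligands, with CCL3 and CXCL2, that reached the minimum in the knockdown table alone. In the inhibitor table CCL3 at 8.69 and CXCL2 at 7.36 lay only a little under it. Of the 12609 protein-coding genes detected in the knockdown table, 12354 were detected in both tables. CCL17, the other ligand of CCR4 and a neighbour of CCL22 on chromosome 16, was at 0 in both tables.

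CCL3 (MIP-1α), a ligand of CCR1, and its copy CCL3L1 were both present. CCL3 (chr17:36088256-36090169, minus strand) had a base mean of 19.9 in the knockdown table and 8.69 in the inhibitor table, and CCL3L1 (chr17:36194869-36196758, minus strand, named CCL3L3 in GENCODE release 44) had 30.3 and 25.7. Their coding sequences differ at 9 aligned bases and by a gap of 3, an identity of 95.7%, so that reads can be assigned to either and the split between them is uncertain. The 30 aligned bases that differ most between them hold 3 of these 9 differences, and the rest and the gap lie elsewhere. They are shown with the differing bases in capitals, from coding base 176 of CCL3 and coding base 179 of CCL3L1 in the GENCODE canonical transcripts.
CCL3: agcccGgtgtcatcttcctaaccaagCgaA
CCL3L1: agcccAgtgtcatcttcctaaccaagAgaG
CCL4 (MIP-1β) and CCL4L2, its copy in the same region, were at 2.91 and 3.98 in the knockdown table and at 0.292 and 0.658 in the inhibitor table. The canonical coding sequences of CCL4 and CCL4L2 were 75.9% identical, below the 90% used here to mark near-identical ligands, and other isoforms were not compared. These sequences have unlike lengths, 276 and 309 bases, with 37 gapped positions and 38 substitutions. The value thus does not show that reads can be split between CCL4 and CCL4L2.

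CCL25, the thymic and intestinal ligand of CCR9, had a base mean of 16.2 in the knockdown table and 13.2 in the inhibitor table. CCL23, a ligand of CCR1 made by myeloid cells, was at 14.5 and 10.6. CXCL2, a neutrophil attractant that binds CXCR2, was at 15.6 and 7.36. CXCL2 shares 94.4% of its coding bases with CXCL3, at 5.60 and 8.61, and 93.5% with CXCL1, at 1.40 and 0, and these levels are also uncertain. The differences between CXCL2 and CXCL3 are densest in coding bases 287 to 316, where capitals mark 7 differing bases.
CXCL2: tcatcgaaaagatGctgaaAaaTggCaAAT
CXCL3: tcatcgaaaagatActgaaCaaGggGaGCA
In all, 6 of 1035 pairs of ligands had canonical coding sequences at least 90% identical. The others were XCL1 and XCL2, CXCL1 and CXCL3, and CCL15 and the readthrough gene CCL15-CCL14.

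Just under the minimum lay CCL1 with a base mean of 6.40 in the knockdown table and CXCL3 with 8.61 in the inhibitor table, and just above it CCL23 in both. CXCL6, CCL24 and CCL7 had base means of 3.12, 2.89 and 2.16 in the knockdown table and of 0.455, 1.56 and 0.652 in the inhibitor table. CXCL14, CXCL17, CCL21 and CX3CL1 stayed under 1 in both, and CCL27 was at 0.114 and 1.02. CXCL1, CCL28, XCL2 and CXCL12 were above 0 in the knockdown table alone, at 0.068 to 1.40. CCL11, XCL1 and CXCL13 were above 0 in the inhibitor table alone, at 0.24 to 0.677. Values this small stand for few reads, and nothing is read from which table holds them.

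No read was counted in any library for 13 ligands. They were CCL8, CCL13, CCL14, CCL15, CCL15-CCL14, CCL16, CCL17, CCL18, CCL19, CCL26, CXCL5, PF4 and PPBP. CCL18 is a product of alternatively activated macrophages, and PF4 and PPBP are the chemokines of platelet α granules. Of the platelet markers, ITGA2B, an integrin chain, was detected at 660 and 549.

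Genomic neighbours differed widely. With neighbours up to 1000 kb apart joined, the ligands fell into 16 runs. The run of 11 CC ligands at chr17:35871491-36212878 held CCL5, CCL23, CCL3 and CCL3L1, detected in the knockdown table, beside 5 genes at 0 in both tables. Another run of 6 ligands at chr17:34255274-34363233, which includes the monocyte attractants CCL2 and CCL7, had CCL2 alone detected. The run of 8 ligands on chromosome 4 that starts at CXCL8 had CXCL8 and CXCL2 detected in the knockdown table and PF4, PPBP and CXCL5 at 0.

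Promoter sequences, 250 bases before to 50 after the start, were found in RefSeq (GRCh38.p14) for 32 of the 46 ligands, with the first listed start used for each. The detected ligands CCL5, CCL2 and CXCL16 were among those with no promoter found, so they were not searched. The letters GGAATTTCC, the core of a κB site, or their reverse complement GGAAATTCC occurred in 8 of the 32 promoters, against 0.472% of 27305 promoters. All 8 belong to CXC ligands, and other forms of a κB site were not sought. The stretches around the match are nearly the same in CXCL1, CXCL2 and CXCL3, and likewise in CXCL5 and CXCL6, so the 8 are not independent cases. The motif was chosen after the levels were seen, and enrichment was not tested. The 8 matches are shown here because they include expressed and silent genes. Each is 30 bases on the strand of the gene with the match in capitals.
CXCL8 (chr4:73740468-73740497, plus): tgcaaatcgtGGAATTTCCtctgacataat
CXCL10 (chr4:76023654-76023683, minus): aggagcagagGGAAATTCCgtaacttggag
CXCL2 (chr4:74099253-74099282, minus): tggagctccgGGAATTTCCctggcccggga
CXCL3 (chr4:74038748-74038777, minus): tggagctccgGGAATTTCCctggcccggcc
CXCL1 (chr4:73869305-73869334, plus): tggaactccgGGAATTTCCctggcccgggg
CXCL11 (chr4:76036126-76036155, minus): actcaaagagGGAAATTCCtgtgccataaa
CXCL6 (chr4:73836579-73836608, plus): ctgagttcagGGAATTTCCccagcatccca
CXCL5 (chr4:73998748-73998777, minus): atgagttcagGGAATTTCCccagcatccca
Of these genes CXCL8, CXCL10 and CXCL2 were detected in at least 1 table, CXCL3, CXCL1, CXCL11 and CXCL6 lay above 0 and under the minimum, and CXCL5 was at 0. The same letters thus stood before genes whose base means in the knockdown table ran from 418 for CXCL8 to 0 for CXCL5. Counted over ligands with a promoter, 3 of 9 ligands detected in at least 1 table, 4 of 15 under the minimum and 1 of 8 at 0 in both tables held them.

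Other motifs were sought on both strands in the same promoters. A pair of GAAA separated by any 2 bases, the spacing of an interferon regulatory factor site, was found for CXCL10 and CXCL9, 2 of 32 ligands against 3.65% of all promoters. CXCL9, under the minimum in both tables, held GAAATGGAAA, so the match was not confined to a detected ligand. The CXCL10 match is shown because CXCL10 was the detected member of its trio.
CXCL10 (chr4:76023699-76023728, minus): tcatgttttgGAAAGTGAAAcctaattcac
TATAAA was held by 6 of 9 detected ligands, 4 of 15 under the minimum and 5 of 8 at 0, against 12% of all promoters. TTGCNNAA, a C/EBP-like motif, was held by 3 of 9, 0 of 15 and 2 of 8, against 10.6%. No matches of different motifs overlapped (0 in the ligand promoters). These matches describe sequence only, and no binding was measured here.

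**Figure D3:**
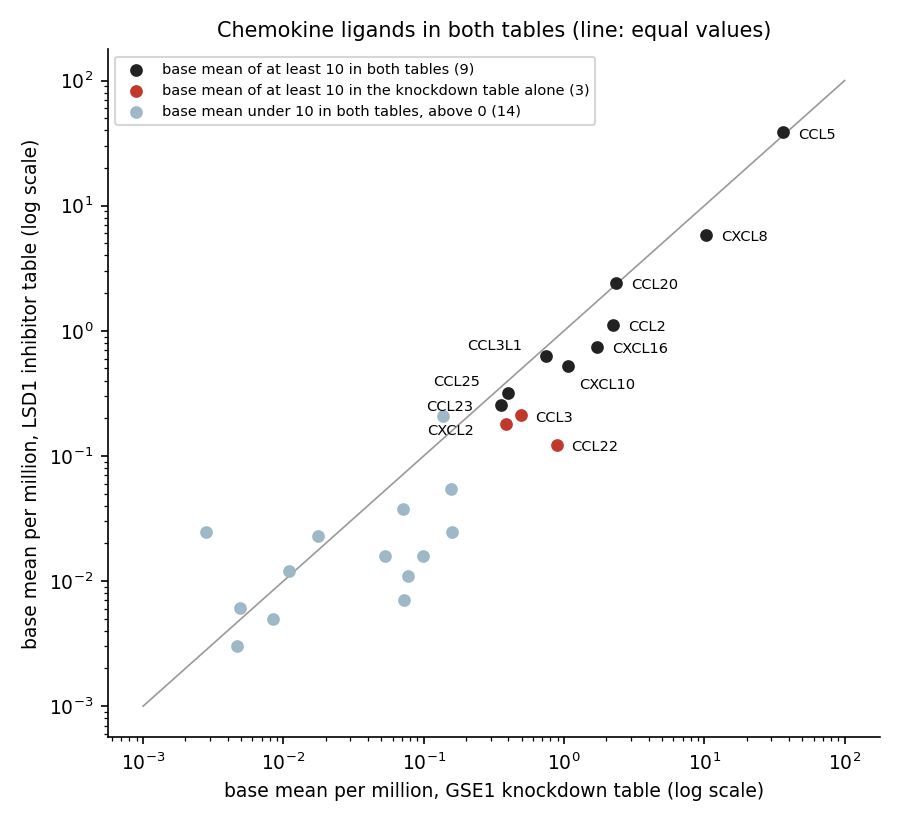
Base mean per 1000000 of all base means of a table (ppm) for the 26 ligands above 0 in both tables, knockdown table on x and inhibitor table on y, both log scales, with the line of equal values. CCL5 and CCL20 lie close to the line. CCL22, CCL3 and CXCL2 lie below it, which follows from their being chosen as detected in the knockdown table alone.

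The tables were normalized separately and differ in transduction, time and treatment, which cannot be told apart, so their levels are set side by side with no test. Scaled to parts per 1000000 of all base means of a table (ppm), 7 of the 9 ligands detected in both tables were lower in the inhibitor table, beside 57.9% of the 12354 protein-coding genes detected in both. CCL5 at 36.4 and 38.5 ppm and CCL20 at 2.36 and 2.41 ppm were the ligands that were not. CXCL8 was at 10.3 and 5.86 ppm and CXCL16 at 1.72 and 0.746 ppm. The median ratio of inhibitor to knockdown table was 0.718 over the 9 ligands and 0.94 over the protein-coding genes. CCL22 had a ratio of 0.138, but as a ligand detected in the knockdown table alone it was lower in the inhibitor table by that choice.

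**Figure D4:**
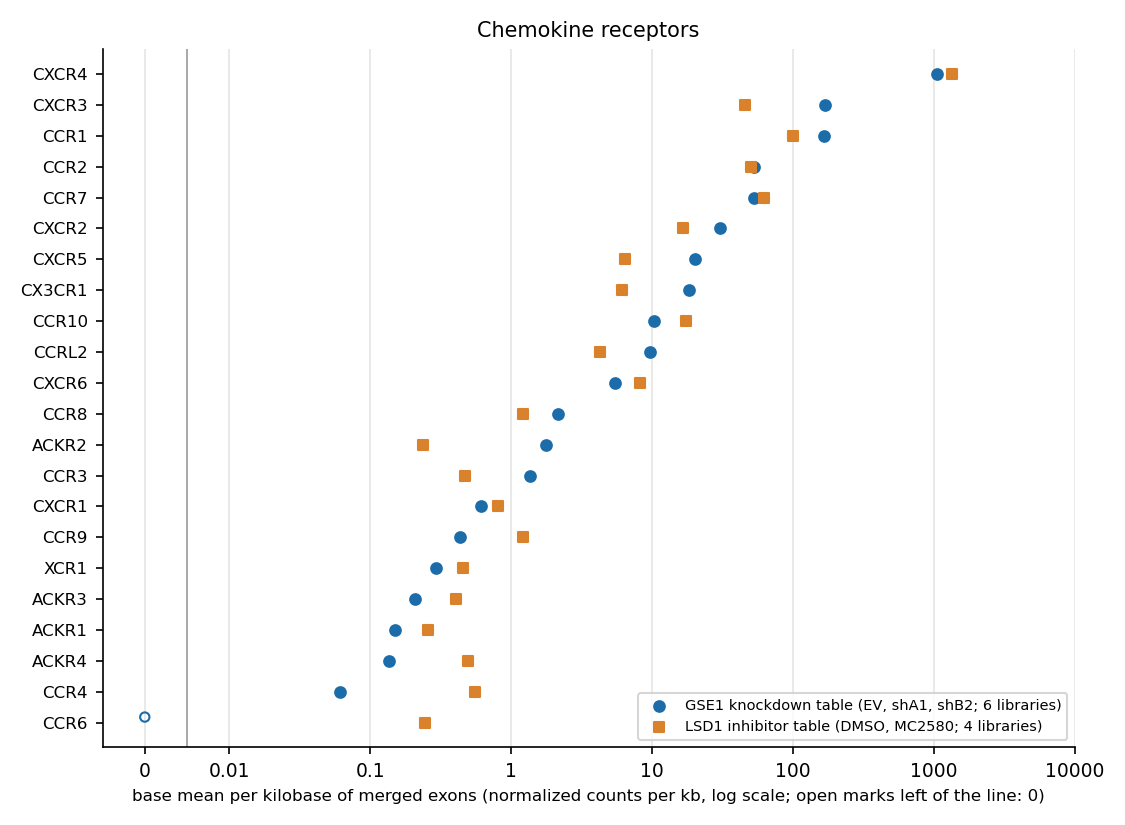
Base mean per kilobase of merged exons (log scale) for 22 chemokine receptors, with circles for the knockdown table and squares for the inhibitor table, and an open mark for a level of 0. CXCR4 lies at 1050 and 1337 per kb, far above the other receptors, and CCR6 is at 0 in the knockdown table.

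Of 22 chemokine receptors, 11 were detected in each table, a smaller share than the 63.1% and 63% of all protein-coding genes and a larger one than the 26.1% and 19.6% of the ligands. CXCR4, the receptor for CXCL12 that holds myeloid cells in the bone marrow, had a base mean of 3047 and 3880, while CXCL12 itself was at 0.068 and 0. Per kb, CXCR4 at 1050 in the knockdown table stood beside CCL5 at 1081. CCR1, which binds CCL5, CCL3 and CCL23, was at 438 and 266.

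CXCR2, a receptor of CXCL8, was at 98.4 and 53.3, and CXCR1, the other, at 1.51 and 1.98. CCR2, the receptor of CCL2, was at 205 and 194, and CXCR3, the receptor of CXCL10, at 317 and 85.0. For CCL20 the receptor CCR6 was at 0 in the knockdown table and 0.858 in the inhibitor table. CCR7, at 133 and 157, had its ligands CCL19 at 0 in both and CCL21 at 0.343 and 0.205. CXCR5, the receptor of CXCL13, was at 86.2 and 27.5, and CX3CR1, the receptor of CX3CL1, at 67.3 and 22.3. Both members of a pair were thus detected for CCL5 and CCR1, CXCL8 and CXCR2, CCL2 and CCR2, CXCL10 and CXCR3, and CXCL16 and CXCR6, the last receptor at 20.7 and 31.0. These pooled means do not show whether both members were present in the same group or the same cells. A receptor without a detected ligand among those named was found for CXCR4, CCR7, CXCR5 and CX3CR1, and for CCR10, at 27.2 and 45.7, whose ligands CCL27 and CCL28 were under the minimum. For CCL20, CCL22 and CCL25, the receptors CCR6, CCR4 and CCR9 were under the minimum.

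Of 10 proteases known to trim or shed chemokines, 6 were detected in each table, a share close to the 63.1% and 63% of all protein-coding genes. MMP9, a gelatinase that shortens CXCL8, had a base mean of 15005 and 10398, and CTSG, the granule protease cathepsin G, 4012 and 6435. ADAM10 and ADAM17, which shed CXCL16 and CX3CL1 from the membrane, were at 4796 and 3308 and at 2425 and 1731. DPP4, which clips the N terminus of many chemokines, was at 0 in both tables. Of 14 other inflammatory cytokines, 8 and 6 were detected, against 63.1% and 63% of all protein-coding genes, led by TNF at 895 and 595 and IL1RN, the interleukin 1 receptor antagonist, at 641 and 921, while IL6 was at 0 in both.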

How the data were processed

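The authors prepared TruSeq mRNA libraries, mapped the reads to hg38 with STAR (version 2.7 in the submitters' processing notes), quantified genes with RSEM and fitted DESeq2. The only signal column used is the authors' base mean, whose header in the knockdown table names shB2 alone. It was taken to pool the 6 libraries of the knockdown table or the 4 of the inhibitor table, which could not be checked without values per library. The rest of each table holds the authors' own comparisons (log2 fold changes, standard errors, Wald statistics, p-values and adjusted p-values), which were not used. The tables hold no values per library, so the planned edgeR test was not run. At most 6 and 11 rows shared a base mean above 0, so whole reads could not be recovered, and the depth per library is unknown. The base means of a table sum to 40543130 and 41201112.

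Gene positions and merged exon lengths came from GENCODE release 44 on GRCh38, matched by stable gene identifier for 60306 of 60603 rows and for all 46 ligands. Levels were divided by exon length where they are given per kb. Detected shares, medians and sums of base means had no length correction, which sets short genes lower than long ones. CCL1, with 594 exon bases, was under the minimum in the knockdown table. Per kb it stood there at 10.8, above the detected CCL25 at 8.07. Coding sequences of canonical transcripts were aligned globally with Biopython 1.88. Counting was tested on simulated levels. The members and lists were chosen with earlier results of these data known. Named by rule were ligands that reached 10 in either table or were at 0 in both. The plan to name up to 8 detected genes of each list, highest first, was not followed in full. PRTN3, a protease at 2511 in the knockdown table and 4358 in the inhibitor table, is among the detected genes left out. Other ligands, genes at or near 0, ligand and receptor pairs and motifs were chosen after the levels were seen. Alternatives were other minimums, a minimum set on the share of all base means, every biotype and near-identical ligands left out. One chemokine receptor is not reported here.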

Additional observations from a re-analysis of the deposited data

How the results depend on the processing

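The counts of detected ligands depended on the minimum. With a minimum base mean of 1, 21 ligands were detected in the knockdown table and 17 in the inhibitor table, and with a minimum of 50, 5 and 3. With a minimum of 1, 17 receptors were detected in the knockdown table and 19 in the inhibitor table, and with a minimum of 50, 6 in the inhibitor table. Ligands with at most 3 normalized counts over all libraries numbered 28 in the inhibitor table. Without the length correction, CCL5 held 62.4% of the ligand level in the knockdown table and 75% in the inhibitor table, and with near-identical coding sequences left out, an alternative added after seeing the data because protein sequences were not used here, it held 73.2% and 82.9%. In the other 13 of 25 alternatives, all of them counts, the value stayed within 1.5 times the one reported. No paired analysis was possible because the tables hold 1 mean over all libraries, and for the same reason no replicate could be left out and edgeR and DESeq2 with their filters were not run. Depth per library is unknown, so a ligand at 0 is one listed without counts, not one shown to be absent.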
